A study of Mus musculus with 2 samples.

Results

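Matrix FAPs of injured mouse muscle, marked by Sfrp4, Gdf10 and Inmt, made up 238 of the 13432 cells in the deposited table, 94 in the WT-labelled library and 144 in the KO-labelled library. They were chosen from the measured values: a cell had to hold Pdgfra RNA, no Pecam1, Cdh5 or Ptprc, and at least 2 of the 3 genes Sfrp4, Gdf10 and Inmt. It could hold at most 1 gene of each of 3 lists that mark other FAPs (Pi16, Dpp4, Sbsn and Efhd1; Hsd11b1, Mme, Bmper and Aldh1a2; Cyp2f2, Myoc, Stmn2 and Clec1a) and at most 2 of the 5 tendon genes Tnmd, Chad, Kera, Scx and Cilp2. Of the 3019 cells that passed the first gate (Pdgfra present, the endothelial genes Pecam1 and Cdh5 and the leukocyte gene Ptprc absent), 2781 were not matrix FAPs and served as the cells beside which they are described.

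The cells came from gastrocnemius muscle that had been injured with cardiotoxin (CTX), a snake toxin that kills muscle fibers and starts their regrowth, in WT C57BL/6J mice and in mice with a global deletion of Gsdme (labelled GSDME-KO). Both groups carried the same injury, and no uninjured muscle is among the samples. The study's text places the single-cell samples at a late stage of regrowth and names several mice per group, but neither it nor the labels say how many mice are in a library, and ages are not given there for these mice. Each genotype is 1 10x Genomics library, so that no difference below has a replicate check, no test was made between genotypes, and genotype cannot be told apart from anything else that differed between the libraries. Every interval is a 95% interval for counting error alone.

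FAPs (fibro-adipogenic progenitors) are the Pdgfra-positive mesenchymal cells between muscle fibers. They lay down matrix and send growth factors to muscle stem cells after injury, and they can turn into fat cells or into matrix-making fibroblasts. Sfrp4 is a secreted protein that binds WNT ligands, Gdf10 is a secreted ligand of the TGF-beta family, and Inmt is an enzyme that methylates amines such as tryptamine. Of the other genes given as markers of these cells, Eln encodes elastin, the core of elastic fibers, Fbln1 encodes fibulin 1, a protein of elastic fibers and basement membranes, and C7 is a late component of the complement cascade.

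The start regions of 3 of these genes are shown, Gdf10 and Inmt from the rule and C7 from the other given markers. Each runs from 250 bases before to 50 bases after the annotated start, in the direction of the gene, from RefSeq (GRCm38.p6). Capitals mark matches, on either strand, to the TATA box spelled TATAAA or to the nuclear receptor half-site spelled AGGTCA. The GATA factor motif spelled AGATAA and the AP-1 motif spelled TGACTCA were searched as well.
Gdf10, chr14:33923337-33923636, plus strand: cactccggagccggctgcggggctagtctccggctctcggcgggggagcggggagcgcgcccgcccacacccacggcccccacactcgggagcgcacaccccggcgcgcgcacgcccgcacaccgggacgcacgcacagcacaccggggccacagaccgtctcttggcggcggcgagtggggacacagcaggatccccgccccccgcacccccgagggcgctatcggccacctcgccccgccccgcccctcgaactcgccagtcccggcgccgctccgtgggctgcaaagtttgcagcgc
Inmt, chr6:55174941-55175240, minus strand: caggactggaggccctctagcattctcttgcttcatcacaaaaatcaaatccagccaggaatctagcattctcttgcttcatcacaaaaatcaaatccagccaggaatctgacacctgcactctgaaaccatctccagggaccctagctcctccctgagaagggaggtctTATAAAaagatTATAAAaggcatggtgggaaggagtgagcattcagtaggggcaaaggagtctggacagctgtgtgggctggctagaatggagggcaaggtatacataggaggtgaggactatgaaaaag
C7, chr15:5063724-5064023, minus strand: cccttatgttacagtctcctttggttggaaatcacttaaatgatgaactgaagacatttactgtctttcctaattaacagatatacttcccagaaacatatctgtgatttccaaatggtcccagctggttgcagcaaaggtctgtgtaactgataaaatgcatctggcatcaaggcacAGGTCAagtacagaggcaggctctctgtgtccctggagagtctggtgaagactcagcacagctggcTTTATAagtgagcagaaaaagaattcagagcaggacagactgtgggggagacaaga

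The 3 regions differ in composition. That of Gdf10 is 77.3% G and C with 42 CG pairs and holds none of the 4 motifs. That of Inmt is 47.7% G and C, holds no CG pair and has 2 TATA boxs, and that of C7 is 44% G and C with 1 TATA box and 1 half-site. Over 32851 such regions the median is 52.7% G and C, the TATA box is found in 13.6%, the half-site in 16.3%, the GATA motif in 11.2% and the AP-1 motif in 5.2%. These are letter matches in a fixed window and say nothing of which factor binds there. In the GRCm38 annotation, Sfrp4 lies at chr13:19623104-19632994 on the plus strand, Eln at chr5:134702593-134747323 on the minus strand and Fbln1 at chr15:85205949-85286535 on the plus strand.

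The libraries were of like depth. Over all cells, the median was 5740 unique molecules (UMIs) per cell in 6354 cells labelled WT and 5962.5 in 7078 cells labelled KO. Of the barcodes, 4 occurred in both libraries, and 2 matrix FAPs labelled WT and 1 labelled KO had such a barcode. Gsdme itself, the deleted gene, had 225 UMIs, or 5.03 per 1000000 UMIs of the cells (CPM; interval, 4.39 to 5.73), in the WT-labelled library and 237 UMIs or 4.65 CPM (4.08 to 5.29) in the KO-labelled library, so that its RNA did not tell the libraries apart and each direction below rests on the labels. In the matrix FAPs it had 6 and 8 UMIs. Which exons the deletion removes was not in the sources used here, so RNA that is still made from the rest of the gene would be counted as well.

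Matrix FAPs had a median of 8031 UMIs (range, 1652 to 83203) in the WT-labelled library and 9180.5 (1010 to 23684) in the KO-labelled library, and together 855132 and 1345602 UMIs. A few of them stood apart. The deepest, in the WT-labelled library, held 83203 UMIs where the next deepest held 26757, and 9.73% of all UMIs of the matrix FAPs of that library. It had 140 UMIs of the muscle filament gene Des, 83 of the titin gene Ttn, and 15 of Myf5 and 13 of Myod1, which mark muscle precursors. The muscle stem cell markers Pax7 and Chodl were at 0 in it. It also had 25 UMIs of the proliferation gene Mki67, and 752 of Col3a1 and 164 of Dcn, which mark fibroblasts. For the depth of the cell this Dcn count was low. At 19.7 per 10000 UMIs it was the lowest of the matrix FAPs labelled WT, whose median was 140. The cell met the rule with 2 UMIs of Pdgfra, 8 of Sfrp4 and 1 of Gdf10. In the KO-labelled library, 1 cell of 10988 UMIs held 552 of the 557 Igkc UMIs and all 243 Jchain UMIs of the matrix FAPs, both antibody genes of plasma cells. In all, 2 and 6 matrix FAPs held at least 3 markers of mural cells, macrophages, muscle stem cells or Schwann cells. The doublet caller Scrublet marked 0 and 2 of the matrix FAPs, and the study's own doublet removal came before deposit. Ratios that rest on single cells are given with and without them.

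The label was set beside markers. All 6 given markers were higher in CPM in matrix FAPs than in the other gated cells of both libraries. Sfrp4, Gdf10 and Inmt chose the cells, so that their excess follows from the rule. The other 3, Eln, Fbln1 and C7, had no part in the rule. They were named as markers with earlier results of these data known, and so are no independent check. Of the markers that all FAPs share (Pdgfra, Ly6a, Cd34, Dcn, Gsn and Col3a1), none was at 0, Pdgfra by the rule. Their summed level was 57681 CPM in the WT-labelled library and 59014 in the KO-labelled library. Of the 4 fat-cell markers, Adipoq, Plin1 and Cidec were at 0 in the matrix FAPs of both libraries, which allows up to 3 UMIs of 855132 and of 1345602. Fabp4, the other marker, stood at 40.9 and 29.0 CPM. Over each whole library, 1 of the 4 markers held 4798.8 of their 4799.1 CPM and 4101.2 of their 4101.7 CPM. The 3 zeros thus tell little about these cells. Pecam1, Cdh5 and Ptprc were at 0 by the rule and check nothing. The endothelial markers besides them summed to 3.51 and 11.1 CPM, with Cldn5 at 0 in the WT-labelled library, and the leukocyte markers besides them to 8.19 and 2.23 CPM. The 7 macrophage markers summed to 37.4 and 108 CPM. The 5 muscle stem cell markers summed to 209 and 11.9 CPM, with Pax7 at 0 in both. The 6 muscle fiber markers summed to 62.0 and 87.7 CPM.

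Most matrix FAPs met the rule with a pair of its genes. Of those in the WT-labelled library, 36 held Sfrp4 and Gdf10, 13 Sfrp4 and Inmt, 20 Gdf10 and Inmt, and 25 all 3, and in the KO-labelled library the numbers were 70, 27, 18 and 29. The lists of other FAP genes took out more cells than they left. Of the 210 and 345 gated cells with at least 2 of the 3 genes, 116 and 201 were removed, most by the Hsd11b1 list (54 and 96) or the Pi16 list (43 and 99). Just outside the rule on the other side were 149 and 210 gated cells that held 1 of the 3 genes and broke no list. Sfrp4 stood at 1727 CPM in the matrix FAPs labelled WT, at 921 in the cells with 1 of 3 and at 496 in those removed by a list, and at 1947, 894 and 1184 CPM in the KO-labelled library. Eln stood at 1592, 608 and 841 CPM in the WT-labelled library and 3931, 2243 and 952 CPM in the KO-labelled library. It was also highest in the matrix FAPs, but the groups outside the rule ranked the other way from Sfrp4 in both libraries. Sfrp4 sorts the cells into these groups, so that its levels follow from the rule.

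Matrix FAPs were 7.31% of the gated cells in the WT-labelled library (94 of 1286; exact interval, 5.95 to 8.87%) and 8.31% in the KO-labelled library (144 of 1733; 7.05 to 9.71%). The difference was 1.0 percentage points (-1.0 to 2.95), an interval that spans 0. Of all cells in the library the shares were 1.48% and 2.03%, a difference of 0.555 points (0.0996 to 1.01). A share of all cells also varies with the number of gated cells, which were 1286 of 6354 and 1733 of 7078 cells. A deeper cell has more chances to show a gene of the rule and also of an excluding list. When each cell was thinned to 2000 UMIs the difference was -1.66 points (-4.29 to 0.877), with shares of 7.51% and 5.85%, and without the excluding lists it was 3.58 points (0.748 to 6.36). The difference was -0.623 points (-3.11 to 1.73) after thinning to 1000 UMIs and -0.271 points (-1.34 to 0.722) with all 3 genes needed. Between cells under 4000 UMIs and cells of 12000 or more, the share went from 8.84% to 9.05% in the WT-labelled library and from 7.27% to 9.51% in the KO-labelled library. The interval of the difference thus spanned 0 among gated cells with the lists applied, thinned or not, and lay above 0 among all cells and without the lists.

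**Figure D1:**
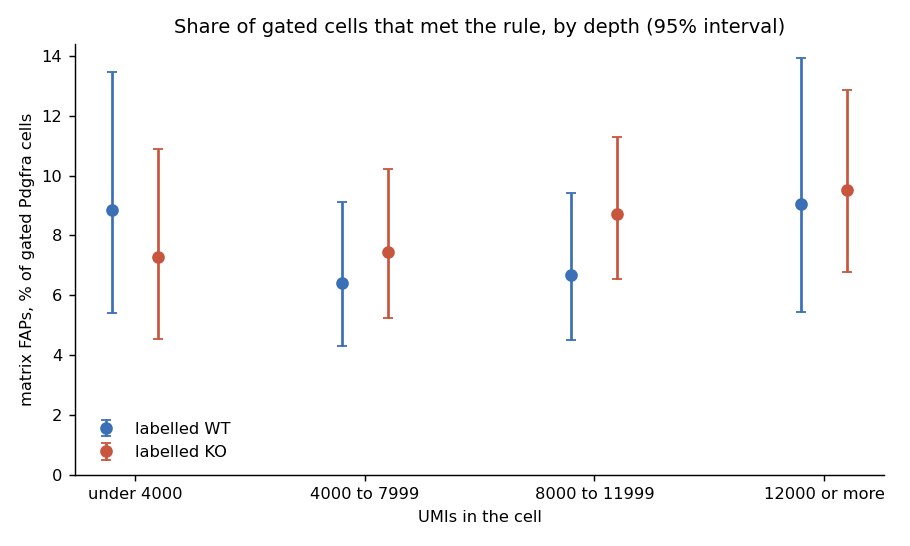
Share of gated Pdgfra cells that met the rule for matrix FAPs, in percent with exact 95% intervals, for cells in 4 classes of UMIs per cell and for each library. The points lie between 6.41% and 9.51%, and the intervals of the libraries overlap in every class.

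Next, the genes that set matrix FAPs beside other gated cells were listed, to describe what else these cells express. The rule chose the cells by the same counts, so that these values are a description and no test was made. Of 11318 genes with at least 50 UMIs over all gated cells, 29 (0.256%) were at least 2-fold higher in matrix FAPs than in the other gated cells in both libraries and 50 (0.442%) at least 2-fold lower, with 10 CPM added to each level and the genes of the rule left out. Genes that were higher fell under several roles: complement (C2, C4b, C7), elastic and fibulin matrix (Eln, Fbln1), a secreted WNT modulator (Sfrp2), a matrix protease (Mmp3) and transcription factors (Nr2f2, Gata6).

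Among complement genes, C2 stood at 156 CPM (130 to 184) in matrix FAPs labelled WT and 133 (114 to 154) in those labelled KO, against 25.6 and 22.1 CPM in the other gated cells. C2 encodes the protease that, cleaved, joins C4b in the C3 convertase. C4b, from which the other part of that enzyme comes, stood at 194 and 232 CPM against 46.6 and 69.7. C7 stood at 175 CPM (148 to 206) and 95.1 CPM (79.4 to 113) against 32.7 and 31.2. Of 12 complement genes compared, 4 were at least 2-fold higher and 1 lower in both libraries. After each cell was thinned to 2000 UMIs, C2 was found in 18.7% of matrix FAPs labelled WT and 18.1% of those labelled KO (46.8% and 54.2% unthinned), against 4.90% and 4.72% of other gated cells and 1.42% and 0.858% of macrophages. C4b was found in 29.7% and 15.2% (44.7% and 31.9% unthinned), and the other gated cells, at 6.27% and 7.32%, lay below the macrophages at 8.99% and 9.44%. Macrophages can make C4b themselves, so that no background level for C4b was measured here. Thinning left out 3 and 6 matrix FAPs under 2000 UMIs, 91 and 127 other gated cells and 18 and 28 macrophages, whose median depth was 6636 and 6634 UMIs against 7946.5 and 8514 in other gated cells.

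The elastin gene Eln was one of the most abundant genes that set matrix FAPs apart. It stood at 1592 CPM (1508 to 1678) in the WT-labelled library and 3931 (3825 to 4038) in the KO-labelled library, against 441 and 901 CPM in the other gated cells. Fbln1 stood at 654 CPM (601 to 710) and 554 (515 to 596), against 152 and 187. Other genes of the elastic fiber list were not set apart in the same way. Mfap5, a microfibril protein, stood at 1036 and 1252 CPM, below the 1695 and 1936 CPM of the other gated cells, and Ltbp4, which tethers latent TGF-beta and guides elastin assembly, stood at 916 and 1217 CPM against 918 and 1034. Of 20 genes of that list, 2 were at least 2-fold higher and 1 lower in both libraries. Fibrillar collagen was carried by all cells: Col3a1 stood at 22902 and 25077 CPM and Col1a1 at 16070 and 14289 CPM. Col3a1 was above the 13135 and 16779 CPM of the other gated cells, but no collagen of 19 was 2-fold higher. Over the 19, the median log2 ratio to the other gated cells was -0.292 in the WT-labelled library and -0.096 in the KO-labelled library.

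Among secreted signals, Sfrp2, another WNT-binding protein, stood at 570 and 497 CPM against 157 and 172 CPM. Gas6, a ligand of TAM receptors, which act in the uptake of dead cells, stood at 483 and 736 CPM against 233 and 279. The matrix protease gene Mmp3 stood at 326 CPM (289 to 367) and 219 (195 to 246) against 43.5 and 67.3 CPM. Fmo2, a flavin monooxygenase, stood at 125 CPM (103 to 151) and 116 (98.5 to 136) against 17.2 and 18.8. Abcc9, a subunit of ATP-sensitive potassium channels that is used as a pericyte marker, stood at 59.6 and 59.5 CPM against 6.65 and 8.53. The 7 pericyte and smooth muscle markers, Abcc9 included, summed to 112 and 158 CPM in matrix FAPs. Of the transcription factors, Nr2f2 stood at 87.7 and 95.1 CPM against 24.3 and 22.7, and Gata6 at 28.1 and 23 CPM against 5.14 and 3.60.

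Compared with each of the other FAP sets taken by the same kind of rule, the defining genes did not all point to the same neighbour. A cell of these FAP sets could hold at most 1 of Sfrp4, Gdf10 and Inmt. The lower levels of Gdf10 and Inmt there thus follow in part from the rules. Eln in the Hsd11b1 Mme FAPs stood at 456 CPM in the WT-labelled library and 937 in the KO-labelled library, in the Pi16 Dpp4 FAPs at 454 and 408, in the Cyp2f2 Myoc FAPs at 186 and 310 and in tenocytes at 87.7 and 718. Gdf10 was next highest in the Cyp2f2 Myoc FAPs, at 214 and 250 CPM. C2 (84.4 and 45.0 CPM) and Fmo2 (35.3 and 49.7 CPM) were also next highest there. Sfrp2 was next highest in the Pi16 Dpp4 FAPs, at 327 and 277 CPM, and Inmt in the Hsd11b1 Mme FAPs, at 124 and 72.8 CPM. The largest drops were in genes of the other sets. The rule's lists kept cells of those sets out of the matrix FAPs, so that these drops follow in part from the rule. Fmod, a tendon proteoglycan, stood at 74.8 and 29.0 CPM in matrix FAPs and 8948 and 6677 in tenocytes. Cd55, a complement inhibitor of progenitor FAPs, stood at 40.9 and 40.1 CPM and 695 and 790 in the Pi16 Dpp4 FAPs. Enpp2, which makes lysophosphatidic acid, stood at 42.1 and 18.6 CPM and 416 and 304 in the Hsd11b1 Mme FAPs.

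**Figure D2:**
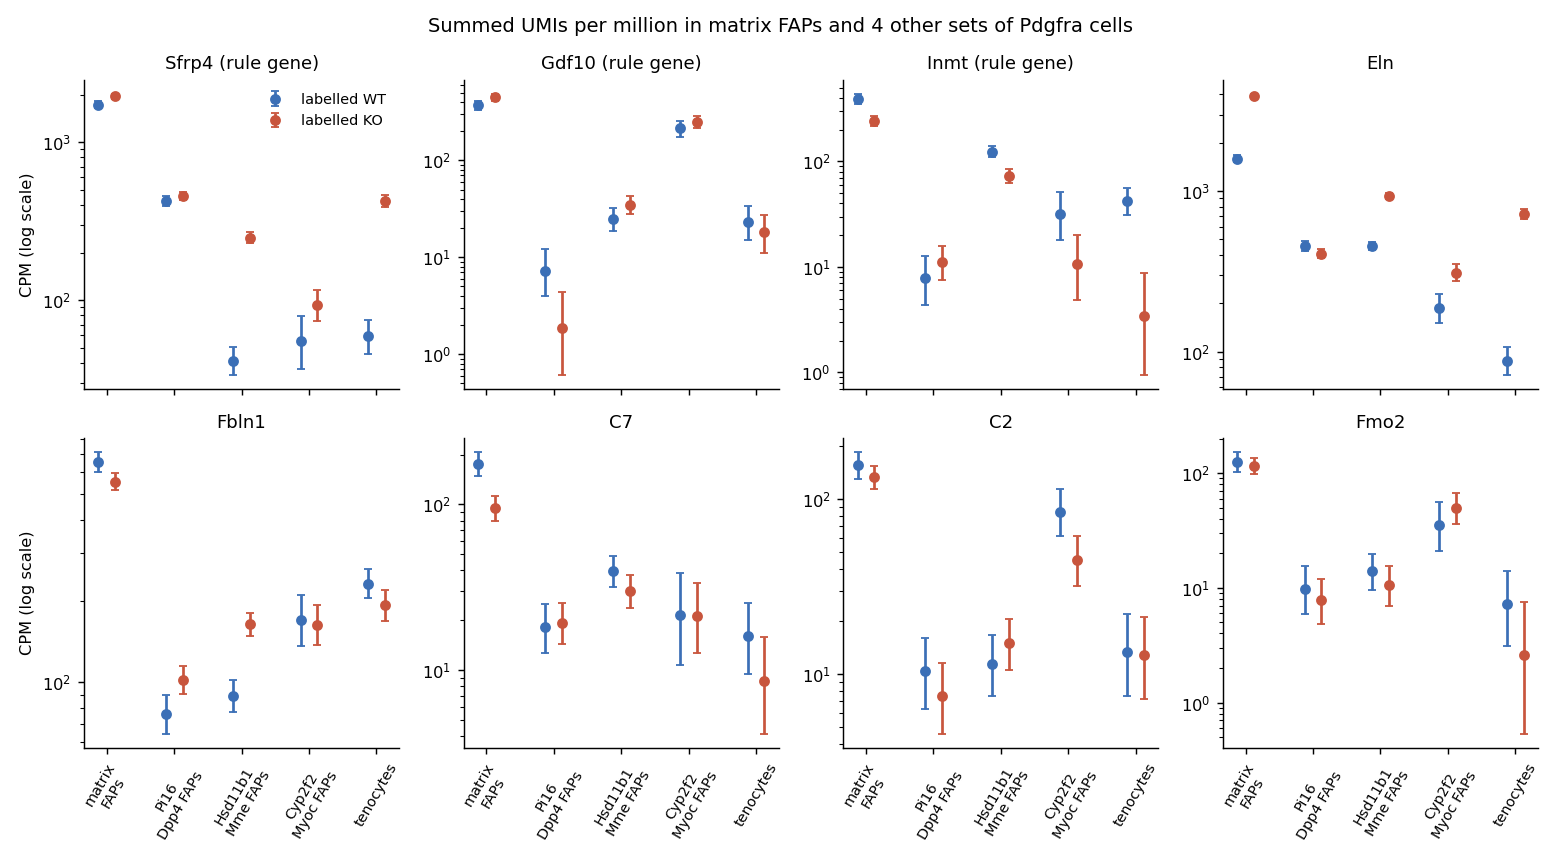
Summed level in CPM (log axis) with 95% Poisson intervals of 8 genes in matrix FAPs and 4 other sets of gated cells, in the WT-labelled library and the KO-labelled library; Sfrp4, Gdf10 and Inmt belong to the rule. Matrix FAPs are highest in all 8 panels, for the genes of the rule largely by construction, and the next set is not the same from gene to gene.

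Matrix FAPs also varied among themselves. Some genes were spread over most cells and others came from a few. Per 10000 UMIs of a cell, Dcn, a collagen-binding proteoglycan, had a median of 140 in the WT-labelled library and 143 in the KO-labelled library, was found in every matrix FAP, and the 10 and 15 cells with most of it held 27.0% and 22.3% of its UMIs. Fbln1 had medians of 6.27 and 4.86, and its top 10 and 15 cells held 35.8% and 31.1%. For Eln the top cells held 57.2% and 70.1%, for Mmp3 83.5% and 72.9%, and for Sfrp2 85.4% and 83.9%. Mmp3 was found in 32 of 94 and 53 of 144 matrix FAPs, and Sfrp2 in 32 and 43.

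The pair of genes by which a cell met the rule went with other genes. C7 stood at 437 and 251 CPM in cells with Gdf10 and Inmt but 53.5 and 48.6 CPM in cells with Sfrp4 and Gdf10, and in cells with Sfrp4 and Inmt it stood at 407 and 58.3 CPM. Mmp3 ran the other way, with 111 and 94.2 CPM in cells with Gdf10 and Inmt and 497 and 278 CPM in cells with Sfrp4 and Gdf10. Abcc9 stood at 71.3 and 73.5 CPM in cells with Sfrp4 and Gdf10 and at 31.8 and 15.7 CPM in cells with Gdf10 and Inmt. Sfrp2 in cells with Sfrp4 and Inmt stood at 1284 CPM in the WT-labelled library and 63.2 in the KO-labelled library. These groups hold from 13 to 70 cells each, so that a few cells can set a level.

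The libraries were then compared within matrix FAPs. Ratios are of summed CPM, KO over WT as labelled, on a log2 scale. Of 5076 genes with at least 50 UMIs, 275 (5.42%) were at least 1.5-fold higher in the KO-labelled library and 332 (6.54%) at least 1.5-fold lower, with 10 CPM added, or 607 (12%) either way. The median ratio over these genes was -0.05. In the 2781 other gated cells, 85 (1.67%) of the same genes were past this fold upward and 82 (1.62%) downward. Of the 275 genes, 228 were also above 0 in the other gated cells and 59 past 1.5-fold there. Of the 332 genes, 302 were also below 0 there and 37 past 1.5-fold. Without the deepest cell, 256 genes were higher and 210 lower, and of the original 332 lower genes 182 stayed past the fold. A matrix FAP sum rests on fewer UMIs than a sum over the other gated cells, so that the larger counts are not evidence of a larger difference.

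**Figure D3:**
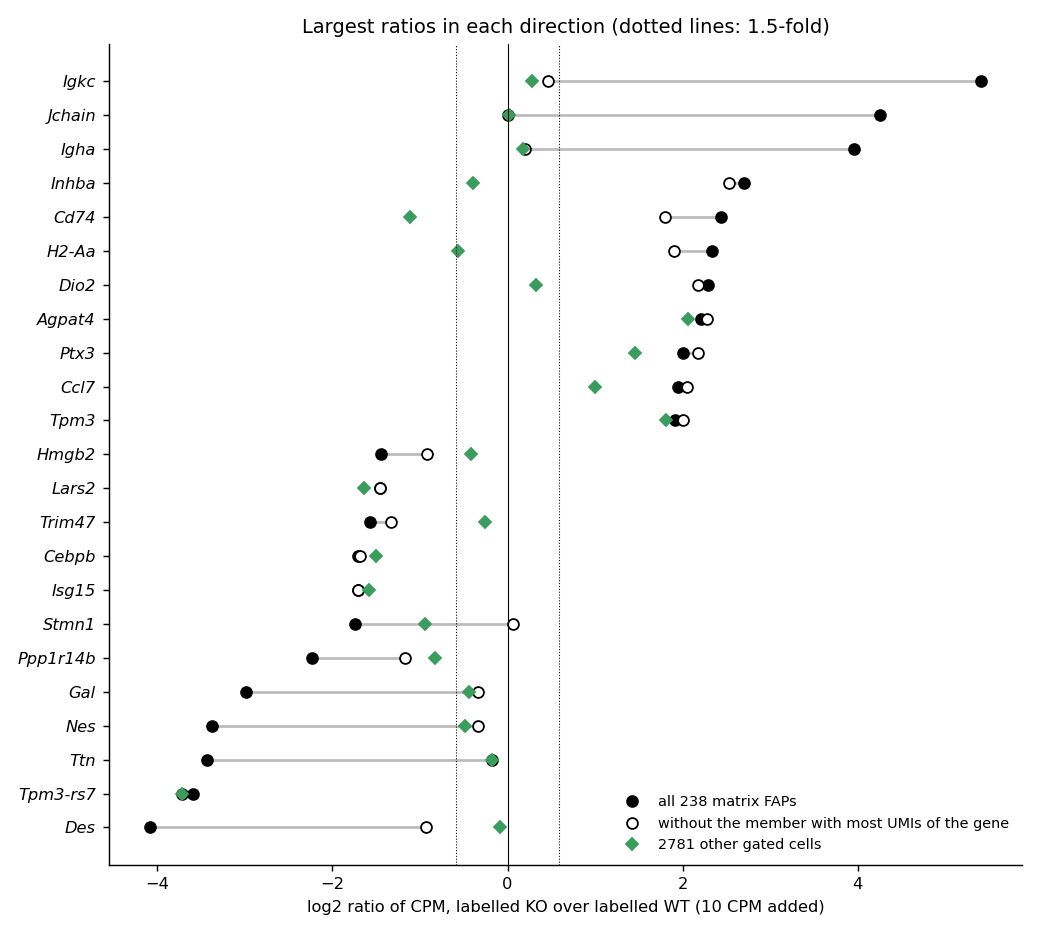
The highest and lowest log2 ratios of CPM between the libraries in matrix FAPs (10 CPM added; filled circles), the same without the matrix FAP that held most UMIs of the gene (open circles) and in the other gated cells (diamonds). Igkc, Jchain and Igha fall to between 0.00 and 0.46 without 1 cell, and Des, Ttn, Nes and Gal to between -0.93 and -0.18, while Agpat4, Tpm3, Cebpb, Isg15, Lars2 and Tpm3-rs7 lie close to the other gated cells.

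Genes of inflammatory signaling were higher in matrix FAPs of the KO-labelled library. Of 17 cytokine, chemokine and related genes compared, 10 were past 1.5-fold higher and 2 lower, with a median ratio of 0.64 (0.31 in other gated cells). Over all 5076 genes 5.42% were past the fold upward and 6.54% downward, the background for this and the later lists, where 1 gene of 18 is near that share. Without the deepest cell 8 were past the fold upward and 3 downward, with a median of 0.52. The list was chosen with results of these data known. Il6, a cytokine that FAPs send to muscle stem cells and leukocytes, stood at 344 CPM (306 to 385) in the WT-labelled library and 1044 (990 to 1100) in the KO-labelled library. That is a ratio of 1.60 (1.42 to 1.79), beside 1.84 (1.76 to 1.92) in other gated cells. Il6 was found in 49 of 94 and 106 of 144 matrix FAPs, and its median per 10000 UMIs was 0.935 and 4.50, so that the difference was seen across cells and not only in the sum. Ccl7, a chemokine that draws monocytes, stood at 191 and 762 CPM, a ratio of 2.0 (1.76 to 2.25) beside 1.02 (0.96 to 1.08). Ccl2 stood at 170 and 594 CPM, a ratio of 1.81 (1.55 to 2.07) beside 0.72 (0.67 to 0.78). Unlike Il6, Ccl2 came from few cells, 19 of 94 and 49 of 144 matrix FAPs, with a median of 0 in both libraries. Its top 10 and 15 cells held 92.4% and 78.8% of its UMIs. Of macrophages, 63.8% and 67.2% held Ccl2. Macrophage markers summed to 37.4 and 108 CPM in matrix FAPs, and their part in the Ccl2 ratio was not tested.

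Ccl11, the eosinophil chemokine eotaxin, stood at 248 and 493 CPM in matrix FAPs, a ratio of 0.99 (0.77 to 1.22), and at 834 and 849 CPM in other gated cells, a ratio of 0.03 (-0.01 to 0.07). Cxcl1, a neutrophil chemokine, stood at 1492 and 2420 CPM, a ratio of 0.70 (0.60 to 0.79) beside 0.59 (0.56 to 0.62). Genes of this list that were lower were Cxcl9, at 195 and 111 CPM, and Ackr3, a scavenging receptor of Cxcl12, at 363 and 223 CPM. Cxcl9 was found in 10 and 17 cells, and without the cell that held most of it its ratio (10 CPM added) went from -0.77 to -0.18. Ptx3, a secreted pattern-recognition protein that binds complement, stood at 181 and 757 CPM, a ratio of 2.06 (1.82 to 2.32) beside 1.49 (1.43 to 1.55). It came from few cells, 26 and 58 of the matrix FAPs. Ptgs2, the inducible prostaglandin synthase, stood at 246 and 526 CPM, a ratio of 1.10 (0.88 to 1.33), and at 458 CPM in other gated cells of both libraries. The prostaglandin receptor gene Ptger4 stood at 9.36 and 36.4 CPM.

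Of 10 NF-kB subunit and feedback genes, 4 were past the fold upward and none downward, with a median of 0.38 (0.47 in other gated cells). Nfkb1, a subunit, stood at 318 and 540 CPM, and Nfkbia, the inhibitor it induces, at 401 and 366 CPM. Immediate-early genes, which respond within minutes to stimuli and to dissociation, were alike in sum (21076 and 21738 CPM), with 5 of 25 past the fold upward. Heat-shock genes were higher in every set: 8 of 13 were past the fold upward in matrix FAPs and 12 of 13 in the other gated cells, with medians of 0.76 and 1.13. Their sum was 9567 and 16026 CPM in matrix FAPs and 10897 and 21796 CPM in other gated cells, and its part in the other differences between the libraries was not tested. Hspa1a and Hspa1b, near-identical chaperone genes whose reads may be split, stood at 295 and 836 CPM and at 384 and 1190 CPM.

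**Figure D4:**
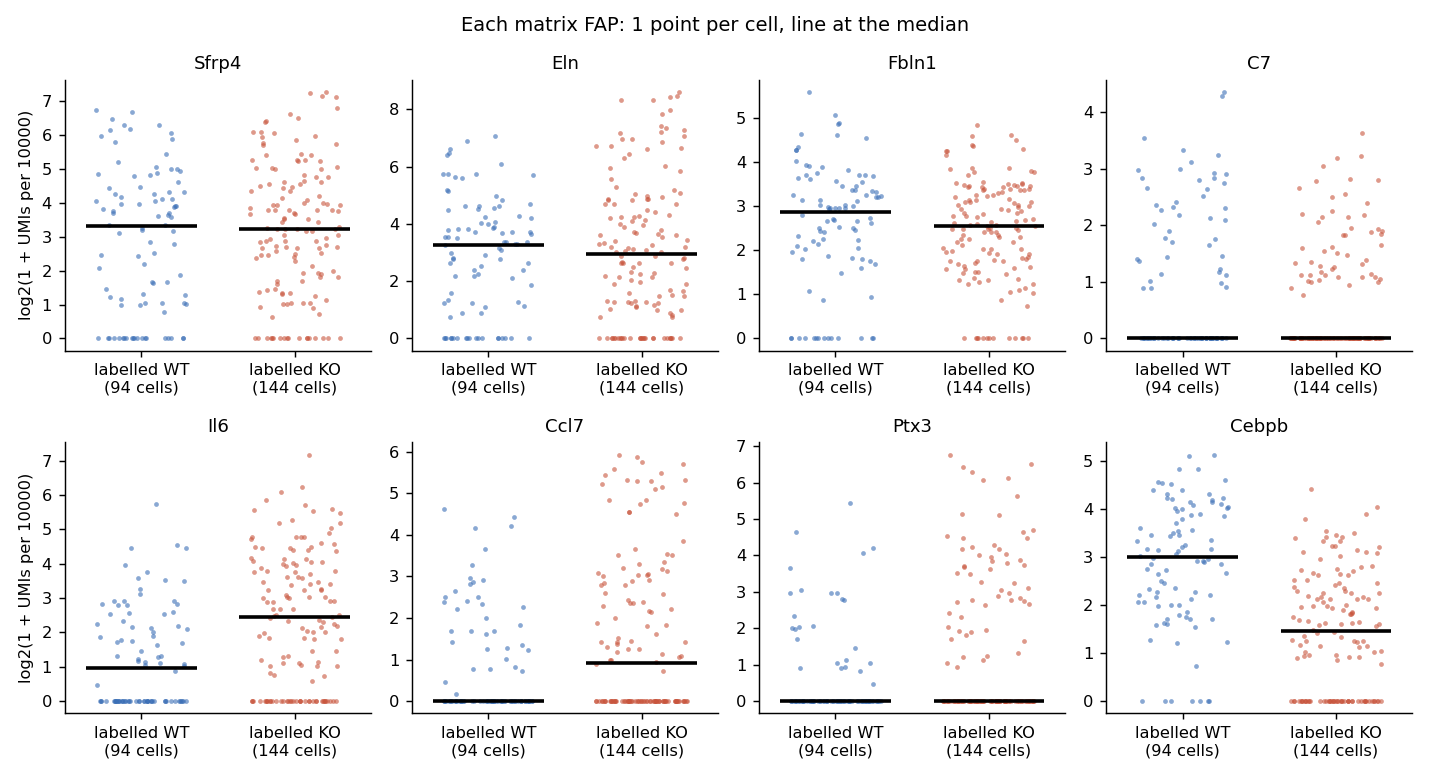
Each point is 1 matrix FAP, as log2 of 1 plus its UMIs per 10000, for 8 genes in the WT-labelled library (94 cells) and the KO-labelled library (144 cells), with a line at the median. Il6 and Cebpb differ in their medians, while Eln differs in its highest cells and its median is slightly lower in the KO-labelled library.

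Matrix genes moved unevenly. Eln was higher in the summed UMIs of the KO-labelled library by a ratio of 1.30 (1.22 to 1.39), beside 1.03 (0.98 to 1.08) in other gated cells. The median matrix FAP did not follow, at 8.63 UMIs of Eln per 10000 in the WT-labelled library and 6.71 in the KO-labelled library. The upper quartile was 18.3 and 27.6 and the highest cell 134 and 387, and 75 of 94 and 116 of 144 cells held it. Among the cells with all 3 genes of the rule, Eln stood at 2573 and 2087 CPM. The higher sum thus came from the cells with most Eln. Of 18 elastic fiber genes compared, 2 were past the fold upward, Eln and Loxl1, and none downward. Loxl1, which crosslinks elastin, stood at 356 and 566 CPM, a ratio of 0.67 (0.48 to 0.87) beside 0.26 (0.20 to 0.32). With 10 CPM added it went from 0.66 to 0.56 without its top cell, short of the fold, and to -0.18 in cells with all 3 genes of the rule.

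Of 30 proteoglycan and glycoprotein genes, 6 were past the fold upward and 1 downward. Thbs1, thrombospondin 1, a matrix protein that activates TGF-beta, stood at 270 CPM (236 to 307) and 1032 (979 to 1088), a ratio of 1.93 (1.73 to 2.14) beside 0.59 (0.55 to 0.63) in other gated cells. It was found in 33 of 94 and 75 of 144 matrix FAPs. Fn1, fibronectin, stood at 1978 and 3252 CPM (log2 ratio -0.032 in cells with all 3 genes of the rule), and Postn, periostin, at 975 and 1877 CPM, found in 36 and 89 cells. Timp1, an inhibitor of matrix proteases, stood at 166 and 376 CPM, a ratio of 1.18 (0.91 to 1.46) beside 0.35 (0.27 to 0.42). Mmp3 went the other way in matrix FAPs, at 326 and 219 CPM, a ratio of -0.57 (-0.81 to -0.33), while it was 0.63 (0.46 to 0.80) in other gated cells. Its UMIs were in few cells, and with 10 CPM added Mmp3 was not past the fold. Of 18 collagens compared 1 was past the fold, Col18a1, which carries endostatin, at 73.7 and 125 CPM.

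Genes of growth factor and WNT signaling included some of the larger ratios. Sfrp1, a WNT-binding protein, stood at 161 CPM (136 to 191) in the WT-labelled library and 421 (387 to 457) in the KO-labelled library, a ratio of 1.38 (1.11 to 1.66) beside 0.65 (0.53 to 0.77), and was found in 44 and 97 cells. Sfrp4, whose level in matrix FAPs is set in part by the rule, stood at 1727 and 1947 CPM, a ratio of 0.17 (0.08 to 0.27). Inhba, a subunit of activin A, stood at 5.85 CPM (1.90 to 13.6) and 92.9 (77.3 to 111), in 5 and 27 cells, and at 65.7 and 47.8 CPM in the other gated cells. Fst, follistatin, which binds activin, stood at 374 and 592 CPM beside 373 and 378. Igf1, a growth factor for muscle fibers, stood at 1060 and 1697 CPM, a ratio of 0.68 (0.57 to 0.79) beside 0.43 (0.39 to 0.47), and its carrier Igfbp3 at 373 and 645 CPM, beside 203 and 197. With 10 CPM added, Igfbp3 went from 0.77 to 0.56 without its top cell, and Igf1 from 0.67 to 0.57 and Fst from 0.65 to 0.52 without the deepest cell, each then short of the fold. In cells with all 3 genes of the rule Fst was at -0.24. Igfbp6 was lower, at 2087 and 1342 CPM, a ratio of -0.64 (-0.73 to -0.54) beside -0.12 (-0.15 to -0.10), but without the cell that held most of it the ratio (10 CPM added) was -0.29. Of 22 BMP and TGF-beta genes, 2 were past the fold upward and 4 downward. Those lower included the antagonist Chrdl1 (182 and 117 CPM), the pseudoreceptor Bambi (74.8 and 45.3 CPM) and the target Id2 (141 and 87.7 CPM). Without the cell that held most of the gene, Chrdl1 went from -0.60 to -0.47 and Bambi from -0.62 to -0.53 (10 CPM added), no longer past the fold.

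Dio2, the deiodinase that activates thyroid hormone, stood at 10.5 and 90.7 CPM, in 7 and 22 cells. Rdh10, the first enzyme of retinoic acid synthesis, stood at 46.8 and 113 CPM, a ratio of 1.11 with 10 CPM added, but -1.38 in cells with all 3 genes of the rule.

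The defining genes did not move together. C7 was lower in the KO-labelled library, at 175 and 95.1 CPM, a ratio of -0.88 (-1.24 to -0.53) beside -0.07 (-0.28 to 0.14) in other gated cells. In the 25 and 29 cells with all 3 genes of the rule the direction was the other way, at 153 and 188 CPM. Those cells held only 169821 and 250647 UMIs in all, and no interval is given for that ratio. After thinning to 2000 UMIs C7 was found in 26.4% (17.7 to 36.7%) and 11.6% (6.77 to 18.1%) of matrix FAPs (46.8% and 36.8% unthinned). Cfb, factor B, was lower as well, at 99.4 and 55.7 CPM, and these were the 2 of 10 complement genes past the fold, none being past it upward. Inmt was lower, at 393 and 244 CPM, a ratio of -0.69 (-0.91 to -0.47), and so it was in other gated cells (-0.52; -0.66 to -0.38). Gdf10 stood at 371 and 450 CPM and Fbln1 at 654 and 554, C2 at 156 and 133 and Fmo2 at 125 and 116, ratios between -0.24 and 0.28. Inmt and Gdf10 are genes of the rule. Their levels in matrix FAPs, and in the cells that the rule left out, are set in part by it. The makeup by pairs differed between the libraries, with 20 of 94 and 18 of 144 cells holding Gdf10 and Inmt, the pair with most C7, and its part in the lower C7 was not tested.

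Of 9 adipogenic genes compared, which drive or mark fat formation, 2 lay above 0, 1 was past the fold upward and 1 downward, with a median of -0.39 (-0.12 in other gated cells). Without the deepest cell 0 were past it upward and 2 downward, with a median of -0.47, and in cells with all 3 genes of the rule the median was 0.45. Cebpb, an early adipogenic transcription factor, stood at 909 CPM (846 to 975) and 272 (245 to 301), a ratio of -1.74 (-1.92 to -1.56) beside -1.54 (-1.59 to -1.48). Cebpd, its partner, stood at 924 and 1511 CPM, a ratio of 0.71 (0.59 to 0.83) beside 0.89 (0.86 to 0.93). Lpl, lipoprotein lipase, stood at 639 and 779 CPM. Of 14 fibroblast transcription factors, Hic1 (50.3 and 20.1 CPM) and Twist1 (111 and 62.4 CPM) were past the fold downward. Cdkn1a, the p53 target that stops the cell cycle, stood at 554 and 299 CPM, a ratio of -0.89 (-1.08 to -0.69) beside -0.50 (-0.56 to -0.44).

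Of 13 interferon response genes compared, 1 was past the fold upward and 2 downward. Isg15, a ubiquitin-like protein, stood at 200 CPM (171 to 232) and 54.3 (42.5 to 68.2), a ratio of -1.88 (-2.30 to -1.48) beside -1.73 (-1.84 to -1.61), and Ifit3 at 56.1 and 14.9 CPM. Gbp2, a guanylate-binding protein, was higher, at 63.1 and 134 CPM. Lars2, a mitochondrial leucyl-tRNA synthetase, stood at 2528 and 916 CPM, a ratio of -1.47 (-1.57 to -1.36) beside -1.65 (-1.68 to -1.63). Tpm3 stood at 139 and 551 CPM and Tpm3-rs7, a near-identical copy of it, at 156 and 3.72, with like values in other gated cells (144 and 530, and 193 and 5.43). Reads of the pair may be split between them, so that neither level is certain. Agpat4, an acyltransferase of phospholipid synthesis, stood at 4.68 and 58.0 CPM, beside 8.36 and 66.7.

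**Figure D5:**
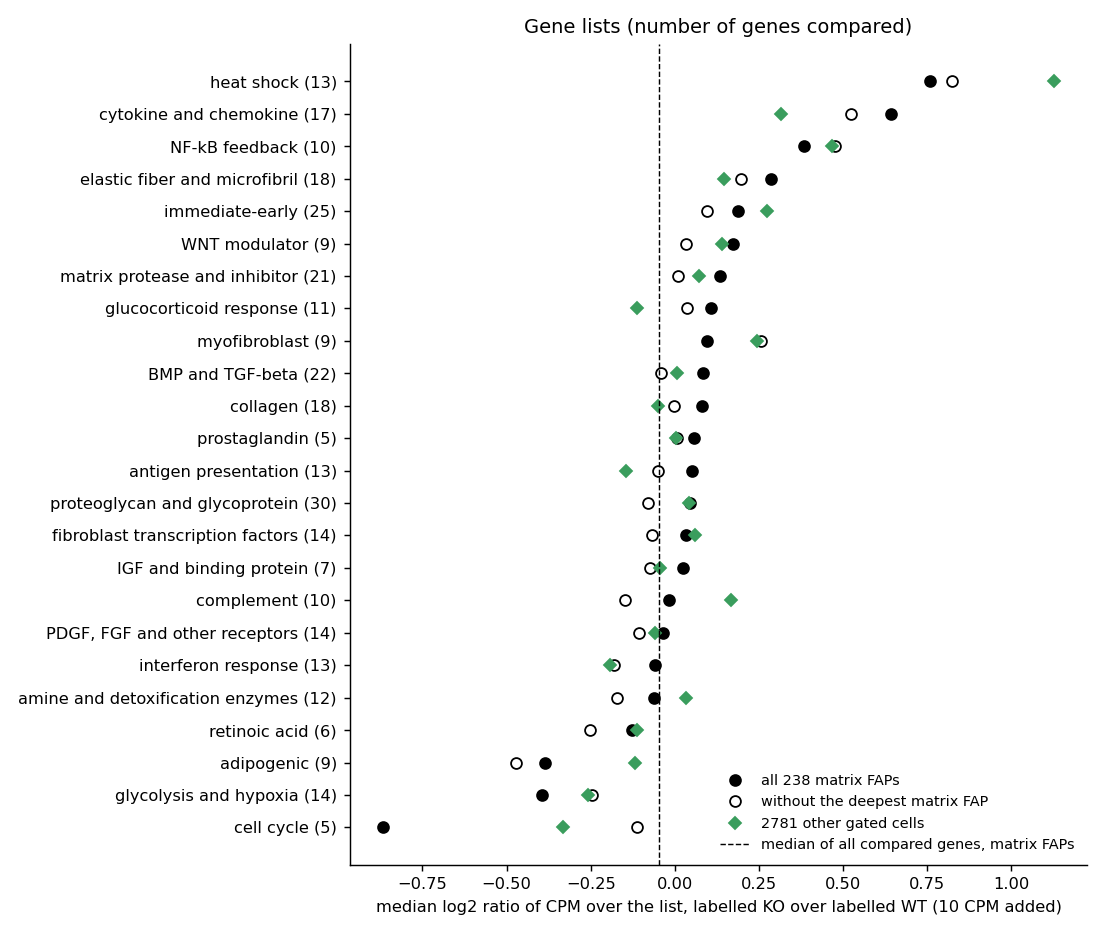
Median log2 ratio of CPM, KO over WT as labelled (10 CPM added), over the compared genes of 24 gene lists in all matrix FAPs (filled circles), without the deepest matrix FAP (open circles) and in the other gated cells (diamonds); the dashed line is the median over all 5076 genes. Heat shock (0.76) and cytokine and chemokine (0.64) lie highest, and cell cycle moves from -0.87 to -0.11 without 1 cell.

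Of 5 cell cycle genes compared, 3 were past the fold downward, with a median of -0.87, but without the deepest cell 1 was, with a median of -0.11. Of 14 glycolysis and hypoxia genes 1 was past the fold upward and 4 downward, with a median of -0.40, and without the deepest cell 1 and 0 were, with a median of -0.25. Stmn1, a microtubule protein of dividing cells, turned from -1.74 to 0.41 without that cell (10 CPM added). The lists on matrix proteases, retinoic acid, prostaglandin, glucocorticoid response, myofibroblast genes, receptors and detoxification enzymes had medians between -0.13 and 0.14, with 1 to 2 genes upward and 0 to 2 downward in each.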

How the data were processed

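Cells of injured gastrocnemius were captured with a 10x Genomics 5′ kit, 1 library per genotype. The authors' notes name Cell Ranger 2.1.1 and the mm10 genome build, and their methods name a later Cell Ranger, Seurat and doublet and mitochondrial filters. The deposited table holds 19169 genes in 13432 cells as the natural log of 1 plus UMIs per 10000, and no mitochondrial gene. The authors' scaling was undone here: the step that is worth 1 UMI was found in each cell, and all but 33 of 29528482 values above 0 then lay within 0.1 of a whole number, those 33 being counts of 2123 or more. The step recovered 500 of 500 simulated cells. No cell was removed. Barcode endings give the library, per the series' design text.

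UMIs were summed over the cells of a set and library and given per 1000000 UMIs of those cells (CPM) with exact Poisson intervals; ratios have intervals from the exact binomial share of UMIs, shares of cells have Clopper-Pearson intervals and their differences Newcombe intervals, all at the 95% level, for counting error only. With 1 library per genotype no test was made. Genes were compared with at least 50 UMIs, 10 CPM being added before a ratio was set against 1.5-fold (libraries) or 2-fold (matrix FAPs against other gated cells). All counts of cells with a gene after thinning use 2000 UMIs per cell, drawn without replacement.

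Named genes are those of the rule and given markers, the 15 highest and 8 lowest against other gated cells, the 12 highest and 12 lowest between libraries, up to 4 most abundant genes and any gene past 1.5-fold of 24 lists, and Gsdme. A few genes that this rule names are not reported here. Members and lists were chosen with earlier results of these data known. The scripts ran under Python 3.11.15 with scipy 1.17.1, scanpy 1.11.5 (for Scrublet, which called 101 and 109 cells), numpy 2.4.6, pandas 2.3.3 and, for plots, matplotlib 3.10.9; the ratio step was tested on simulated counts. Gene positions are from the GENCODE annotation of GRCm38, and 208 of 208 named genes matched.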

Additional observations from a re-analysis of the deposited data

Results flagged for a closer look

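For 2 genes the ratio between the libraries went one way in matrix FAPs and the other way in the other gated cells, each by at least 1.5-fold; the difference between the ratios was not tested. The log2 ratio of KO over WT as labelled (10 CPM added) was 2.44 for Cd74 and 1.53 for H2-Eb1 in matrix FAPs, and -1.12 and -0.73 in other gated cells. Cd74 and H2-Eb1 belong to antigen presentation by MHC class II. In the KO-labelled library, 1 cell had 65 of 153 UMIs of Cd74 and also 28 UMIs of macrophage markers. The cell with most H2-Aa, another class II gene, had 66 UMIs of macrophage markers and was a Scrublet call. The 7 macrophage markers summed to 37.4 CPM in the WT-labelled library and 108 in the KO-labelled library in matrix FAPs, and to 78.1 and 75 CPM in other gated cells, and their part in these ratios was not tested. Without the cell that held most of the gene, the ratios were 1.80 and 1.16. The values in matrix FAPs thus rest on few cells.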

How the results depend on the processing

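With 1 library per genotype no replicate could be left out. No paired analysis was possible because each genotype has 1 library. The difference in the share of matrix FAPs among gated cells, 1.0 points, became -1.66 after thinning to 2000 UMIs and 3.58 without the excluding lists. Counts of genes followed the threshold and filter: of genes higher in the KO-labelled library (275) there were 121 with at least 200 UMIs, 484 with no filter, 68 past 2-fold and 133 in cells with all 3 genes of the rule, and of genes lower (332) there were 71, 906, 47 and 102, and 521 with 1 CPM added. Alternatives added after seeing the data gave 214 lower genes without cells that hold markers of another lineage and 210 without the deepest cell. Genes set against other gated cells went from 29 to 76 higher and from 50 to 261 lower with 1 CPM added, and to 52 and 84 beside the 3 other FAP sets. The number of genes compared changes with the UMI filter and with the cells kept. Counts under such settings are thus not shares of the same 5076 or 11318 genes, and a smaller or larger count is no change in the result by itself.

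In cells with all 3 genes of the rule (25 and 29), ratios changed sign for C7 (0.28), Eln (-0.30), Fn1 (-0.032), Fst (-0.24), Igf1r (-0.21), Il33 (-0.83), Loxl1 (-0.18), Maff (-0.26), Rdh10 (-1.38), Slc2a1 (-0.23) and Stmn1 (1.14), and for the medians of the adipogenic (0.45) and interferon response (0.043) lists. The cells with all 3 genes held 169821 and 250647 UMIs, and no counting interval is given here for their ratios. A change of sign may thus lie within counting error. Stmn1 was also 0.062 without its top cell and 0.41 without the deepest cell, and the interferon median 0.07 as a mean over cells. Otherwise, of 186 genes, none changed sign under 1 CPM added, cells of at least 2000 UMIs, no Scrublet calls or a mean over cells, but many moved by more than their counting interval: 110 with all 3 genes, 69 as a mean over cells, 43 without the deepest cell, 37 without the top cell, 9 without Scrublet calls and 1 in cells of at least 2000 UMIs. Apart from the construction (fewer cells or genes), the cause of these changes was not tested.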

Other observations

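Antigen presentation genes outside MHC class II were level in matrix FAPs of both libraries. B2m stood at 903 CPM in the WT-labelled library and 929 in the KO-labelled library, H2-K1 at 434 and 430 and H2-D1 at 683 and 728. The class II genes were at low levels, and H2-Ab1 stood at 10.5 and 34.9 CPM, found in 8 and 18 matrix FAPs, where macrophage markers summed to 37.4 and 108 CPM. Metallothionein genes, which bind zinc and copper, were abundant: Mt1 stood at 5591 CPM in the WT-labelled library and 8955 in the KO-labelled library, a log2 ratio of 0.68 (0.63 to 0.73), and 5211 and 7882 CPM in the other gated cells.

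Among receptors, Pdgfra, which the rule required in every gated cell, was level at 281 and 287 CPM (log2 ratio 0.03, interval -0.20 to 0.27). Igf1r stood at 52.6 and 91.4 CPM, beside 88.9 and 84.5 in other gated cells (log2 ratio -0.21 in cells with all 3 genes of the rule). Apoe, a lipid carrier, was higher in matrix FAPs (865 and 658 CPM) than in other gated cells (397 and 326 CPM), as was Prrx1, a mesenchymal transcription factor (242 and 244 CPM beside 153 and 173). Ribosomal protein genes made up 15.7% and 13.8% of the UMIs of matrix FAPs.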
